A study of Mus musculus with 18 samples.

Results

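The Eph receptors described here are 10 genes, Epha3, Epha4, Epha5, Epha6, Epha7, Epha8, Ephb1, Ephb2, Ephb3 and Ephb6, chosen by symbol from 55335 gene features. Eph receptors are receptor tyrosine kinases that bind ephrins on the surface of neighbouring cells. Receptors of the A class mainly bind ephrins anchored to the membrane by a lipid, and those of the B class mainly bind ephrins that span it, with Epha4 known to bind both kinds. The signal runs into the receptor-bearing cell and back into the ephrin-bearing cell, and in the embryonic forebrain the family is known for repelling growing axons, ordering topographic maps and keeping neighbouring groups of cells apart.

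Nuclei came from the forebrain of C57BL/6 mouse embryos at embryonic day 14 (E14), when neurons of the cortex and the basal forebrain are being made. The embryos came from crosses of heterozygous parents and carried 2 (WT), 1 (Het) or 0 (KO) intact alleles of Myt1l, a zinc finger transcription factor of neurons, the other alleles holding the S710fsX frameshift. The animal was the replicate, with 3 animals per genotype, each with 2 libraries that the titles call run 1 and run 2 without saying what a run is. The kit used combinatorial barcoding, which labels fixed nuclei over rounds of splitting and pooling. The mutation was present in every cell from conception, so a change in a class of nuclei need not start in that class.

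The files held 261143 barcodes, of which 193816 were kept, 14849 to 25851 per animal, with 43133425 to 73907567 unique molecular identifiers (UMIs) per animal. Between libraries, 159 barcodes were shared by the 2 runs of an animal and 1704 by different animals. Groups follow the sample titles, and the separate genotype tag of run 1 reads WT for all 9 libraries. A frameshift leaves the transcript countable, so Myt1l RNA is no direct check of the labels. In deep-layer excitatory neurons, with both runs summed, the groups named by the titles did not overlap in it, with WT animals at 1430 to 1514 counts for each 1000000 (CPM), Het animals at 1614 to 1663 and KO animals at 1794 to 1894. The level was higher in KO than in WT (log2 change 0.36, SE 0.069, edgeR adjusted p = 0.0128), a call lost without WT 3 (Myt1l adjusted p = 0.0829) or KO 2 (0.0634). Run 2 held most of the UMIs kept from each animal, so the summed level cannot test the titles of run 1. Over all excitatory neurons Myt1l of WT and Het animals overlapped, with WT at up to 2243 CPM and Het from 2198. WT 3 was the only animal with the X inactivation transcript Xist (232 CPM in deep-layer neurons, and at most 0.734 in any other animal), so by this transcript sex was not balanced over the genotypes. The study's methods, in contrast, describe both sexes in every genotype at this age, and the difference was not resolved. The nuclei fell into 29 clusters, built without any Eph or ephrin gene. Clusters were given the name of a cell class where its markers were detected, always in the sense of "like that class", and 12.2% of nuclei stayed unnamed. In all, 6 broad classes and 6 neuron subtypes had at least 20 nuclei in every animal.

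All levels are CPM, a gene's share of the UMIs of a class in an animal. All 10 genes are protein coding, and every one was matched with its version to GENCODE vM21 (GRCm38). Of the A class, Epha3 (ENSMUSG00000052504.7) lies on chromosome 16, 63543534 to 63864175, minus strand. On the same chromosome and strand Epha6 (ENSMUSG00000055540.15) spans 952 kb, 59653483 to 60605531. Epha4 (ENSMUSG00000026235.14) lies on chromosome 1, 77367185 to 77515088, minus strand, and Epha5 (ENSMUSG00000029245.16) on chromosome 5, 84054761 to 84417382, minus strand. Epha7 (ENSMUSG00000028289.12) lies on chromosome 4, 28813131 to 28967499, plus strand, and Epha8 (ENSMUSG00000028661.8) on the minus strand of the same chromosome, 136929419 to 136956816.

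Of the B class, Ephb2 (ENSMUSG00000028664.14) is a neighbour of Epha8 on chromosome 4, 136647539 to 136835988, minus strand. Ephb1 (ENSMUSG00000032537.15) lies on chromosome 9, 101922128 to 102354693, minus strand. Ephb3 (ENSMUSG00000005958.15) lies on chromosome 16, 21204755 to 21223305, plus strand, and Ephb6 (ENSMUSG00000029869.7), whose protein lacks kinase activity, on chromosome 6, 41605482 to 41620509, plus strand. Transcribed spans ran from 15.0 kb (Ephb6) to 952 kb (Epha6), and exonic lengths from 3.77 kb (Ephb6) to 16.74 kb (Epha5). Nuclear RNA holds many intronic reads, and no source used here says if strand was counted. Reads of a gene that overlaps a receptor may therefore be mixed with its own. The annotated overlaps were small: the highest mean level in any class was 21.3 CPM for Gm22769, a small nuclear RNA gene inside Epha3, and 14.7 CPM for Gm37562 inside Ephb1. For Epha7 the only overlapping gene, the antisense Gm11915, was at 0.0298 CPM in deep-layer neurons.

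MYT1 family factors are known to bind the core AAGTT, so the match is shown for the receptors that hold it, along with the bases before the start of Epha7, the receptor whose level changed most clearly with genotype. Promoter windows from RefSeq (GRCm38.p6, 250 bases before to 50 bases after a start) were found for all 10 genes. AAGTT, or AACTT on the other strand, was present in the windows of 4 of the 10 receptors and in 39.3% of 32851 windows of this length. The matches, with up to 10 bases on either side and the motif in capitals, written 5′ to 3′ along the gene's strand, were these. Both matches in Epha3 and the match in Epha6 lie after the annotated start, the match in Ephb1 lies before it, and that in Epha4 spans it.
Epha3, chr16:63864154-63864178, minus strand: tccagtgtcaAACTTgacatcagac
Epha3, chr16:63864126-63864146, minus strand: ggagcatggtAACTTctccag
Epha4, chr1:77515078-77515102, minus strand: ctgcactcctAACTTaagcatttat
Epha6, chr16:60605507-60605531, minus strand: agacacatgaAAGTTctggatgccc
Ephb1, chr9:102354828-102354852, minus strand: ttgcaagcaaAAGTTtttcttaaac
Neither of the 2 windows of Epha7 holds the motif, as its 250 bases before the upstream start show, in lower case throughout because there is no match.
Epha7, chr4:28812881-28813130, plus strand: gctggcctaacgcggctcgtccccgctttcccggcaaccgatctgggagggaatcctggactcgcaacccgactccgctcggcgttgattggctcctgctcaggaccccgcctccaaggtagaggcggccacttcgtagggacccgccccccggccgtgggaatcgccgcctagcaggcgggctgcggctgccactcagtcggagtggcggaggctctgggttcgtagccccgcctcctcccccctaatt
A match is a run of letters and was not tested as a binding site.

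Levels in the broad classes were ordered for each receptor, and each pair of neighbours in an order was compared within animals by an exact sign-flip permutation test (two-sided, 9 animals, smallest possible p = 0.00391, Benjamini-Hochberg adjusted over 50 neighbours of all 10 receptors). Of the 50 neighbouring pairs, 34 differed at an adjusted p under 0.05 and 16 did not. Below, "did not differ beyond their spread" means the latter, the spread being that of the differences within animals. The SDs printed with the levels are those of single classes between animals. The receptors took different orders, and no class was highest for more than 3 of them.

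**Figure D1:**
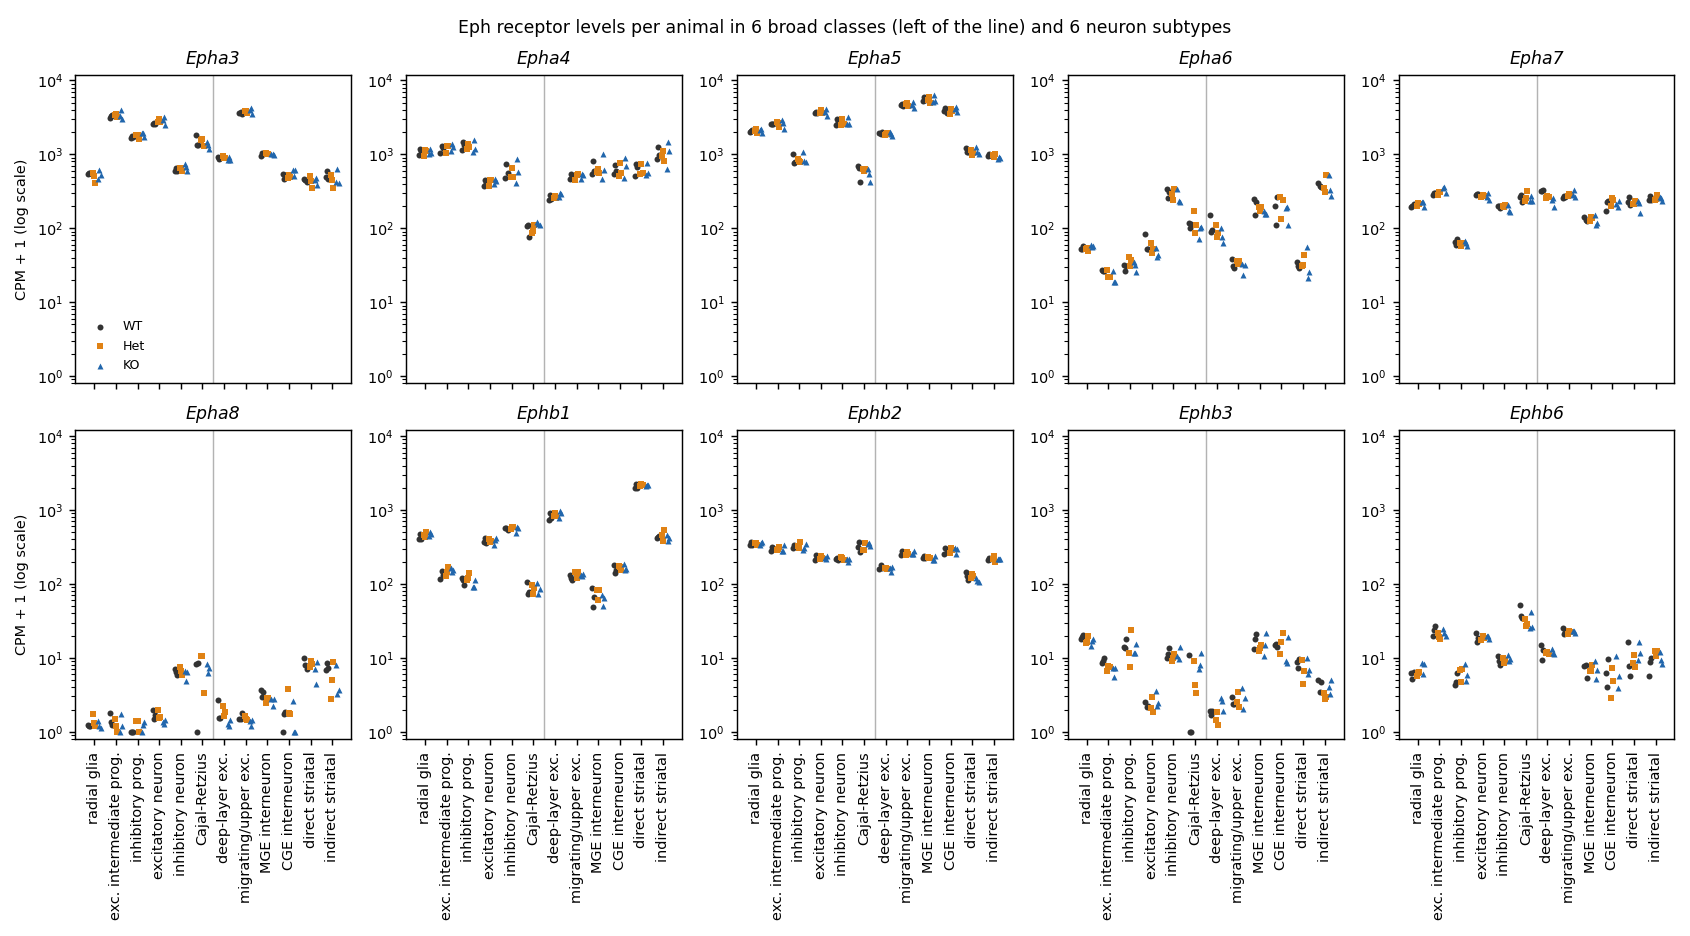
Level of each receptor in each animal, as CPM plus 1 on a log axis, in 6 broad classes (left of the grey line) and 6 neuron subtypes (right), with WT as circles, Het as squares and KO as triangles. Epha6 goes from a mean of 22.8 CPM in excitatory intermediate progenitors to 382 in indirect-pathway striatal neurons, and the symbols of the 3 genotypes overlap in nearly every class.

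Excitatory intermediate progenitors are the dividing cells that give rise to cortical excitatory neurons. Among the broad classes, Epha3, a receptor of A-class ephrins, was highest in them, at 3361 ± 281 CPM (SD, n = 9 animals). Excitatory neurons followed at 2758 ± 220 CPM and inhibitory progenitors at 1774 ± 123 CPM. All neighbours in its order differed, each with an adjusted exact permutation p of 0.00723 or 0.0122, and radial glia came last at 522 ± 60.6 CPM. Inhibitory neurons, just above at 638 ± 47.4 CPM, include a cluster of 1726 nuclei with Epha3 at 1874 ± 91.6 CPM in WT. Its leading genes among the inhibitory clusters include Slc17a6 and Tfap2d, and whether it holds doublets was not tested. Within excitatory neurons Epha3 was uneven: migrating and upper-layer neurons held 3457 to 4201 CPM with a median of 3717, and deep-layer neurons 825 to 935 CPM with a median of 890.3.

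Epha4 was highest in the 3 progenitor classes. It reached 1285 ± 162 CPM in inhibitory progenitors and 1207 ± 124 in excitatory intermediate progenitors, which did not differ beyond their spread (adjusted exact permutation p = 0.0558), and 1078 ± 79.9 in radial glia, the stem cells of the embryonic forebrain. Excitatory neurons had 422 ± 34.6 CPM. Cajal-Retzius cells, early neurons of the cortical surface that secrete reelin, were lowest at 102 ± 14.7 CPM. Among inhibitory neurons the spread between animals was wide, from 403 CPM in KO 1 to 868 in KO 2, and animals numbered 2 were the highest of every genotype.

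Epha5 had the highest CPM of the 10 genes in excitatory neurons (3706 ± 232) and inhibitory neurons (2746 ± 267). Inhibitory neurons and excitatory intermediate progenitors (2583 ± 200 CPM) did not differ beyond their spread (adjusted exact permutation p = 0.165), and Cajal-Retzius cells were lowest (577 ± 99.7). Compared between genes per length, the lead changed with the length used. In WT excitatory neurons Epha3 had 299 CPM per exonic kilobase and Epha5 216, while per kilobase of transcribed span Epha5 had 9.97 and Epha3 8.12. In inhibitory neurons Epha5 was ahead on both scales, with 165 CPM per exonic kilobase and 7.61 per kilobase of span.

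Epha6 was highest in inhibitory neurons, at 284 ± 47.6 CPM, against 107 ± 27.2 in Cajal-Retzius cells (adjusted exact permutation p = 0.00723). Radial glia (53.1 ± 3.06 CPM) and excitatory neurons (53.4 ± 12.8) did not differ beyond their spread (adjusted exact permutation p = 0.879). The place of excitatory neurons in this order holds for the named clusters only. In the unnamed cluster led by Tfap2d, nearest to excitatory neurons by its markers, WT animals had Epha6 at 626 ± 17.5 CPM. In the unnamed cluster led by Sim1 and Tll1 they had 716 ± 94.7 CPM. Excitatory intermediate progenitors were lowest at 22.8 ± 3.54 CPM. The inhibitory neurons were a mixture: indirect-pathway striatal neurons, the dopamine D2 receptor type, held 275 to 526 CPM with a median of 365, and direct-pathway neurons 19.95 to 54.6 CPM with a median of 30.2. Medial and caudal ganglionic eminence interneurons lay between them, with medians of 172 and 192 CPM.

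Epha7, known for its part in sorting cortical axons and neurons, was found in every broad class. It went from 310 ± 27.1 CPM in excitatory intermediate progenitors through 276 ± 18.3 in excitatory neurons to 191 ± 14.2 in inhibitory neurons. Inhibitory progenitors stood apart at 62.1 ± 4.62 CPM (adjusted exact permutation p = 0.00723 against inhibitory neurons). Excitatory neurons and Cajal-Retzius cells (257 ± 29.9 CPM) did not differ beyond their spread (adjusted exact permutation p = 0.0732).

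Epha8 was low in every class. It averaged 5.33 ± 0.79 CPM in inhibitory neurons and 6.09 ± 3.18 in Cajal-Retzius cells, where at most 7 counts lay behind a value, and these 2 classes did not differ beyond their spread (adjusted exact permutation p = 0.941). The other 4 broad classes present in every animal were under 1 CPM. A cluster of 705 diencephalic-like nuclei, all from Het 1 and therefore not compared, had Epha8 at 23.4 CPM on 44 counts. In inhibitory progenitors 5 of 9 animals had no count, and a count of 0 allows a level of up to 0.751 to 2.68 CPM there, depending on the animal.

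Ephb1, a receptor with known roles in axon crossing at the optic chiasm, was highest in inhibitory neurons (561 ± 31.2 CPM), then radial glia (455 ± 37.4) and excitatory neurons (381 ± 26.8), and every pair of neighbours in its order differed. Its subtypes were far apart. Direct-pathway striatal neurons, the dopamine D1 receptor type of the striatum, held 1965 to 2261 CPM with a median of 2174. Medial ganglionic eminence interneurons held 48.5 to 86.1 CPM with a median of 65.4. Deep-layer excitatory neurons had 725 to 955 CPM, and migrating and upper-layer neurons 113 to 146.

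Over the broad classes Ephb2 varied least, from 349 ± 12.95 CPM in radial glia to 216 ± 8.97 in inhibitory neurons. Radial glia, Cajal-Retzius cells (324 ± 35.5 CPM) and inhibitory progenitors (322 ± 23.7) were neighbours that did not differ beyond their spread (adjusted exact permutation p = 0.093 and 0.949). Ephb3 and Ephb6 were low. Ephb3 led in radial glia at 16.6 ± 1.90 CPM and fell to 1.46 ± 0.522 in excitatory neurons. Ephb6 led in Cajal-Retzius cells at 32.95 ± 8.70 CPM, above excitatory intermediate progenitors at 20.7 ± 2.91 (adjusted exact permutation p = 0.00723), and excitatory neurons (17.9 ± 1.44) had more of it than inhibitory neurons (8.45 ± 0.924, adjusted exact permutation p = 0.00723).

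Single clusters sharpened these patterns. Over the 27 clusters with at least 20 nuclei in every animal, the 3 WT animals gave Epha5 at 7320 ± 438 CPM in medial ganglionic eminence interneurons led by Nxph2 and Maf, where Epha4 was at 167 CPM. In the other cluster of these interneurons, led by Lhx6 and Sst, Epha4 reached 1170 CPM and Epha5 3775. Epha6 peaked at 1298 ± 10.7 CPM in an inhibitory cluster led by Gbx1 and Pde3a that matched no subtype. Epha7 peaked in 2 unnamed clusters, at 616 ± 18.4 CPM in the one led by Tfap2d and 549 CPM in the one led by Sim1 and Tll1.

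Ephb1 split the radial glia. It was at 1128 CPM in the cluster led by Mybpc1, whose leading genes include Wnt8b, and 820 CPM in the one led by Otx2os1, whose leading genes include Otx2, against 83.9 CPM in the largest cluster of radial glia, led by Dct. Ephb3 peaked at 47.2 ± 24.4 CPM in the smallest radial glia cluster, led by Rspo2 and Rspo1 and holding Wnt3a among its leading genes, with 335 nuclei in all. Clusters were formed without the receptors, and these are levels with no test.

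**Figure D2:**
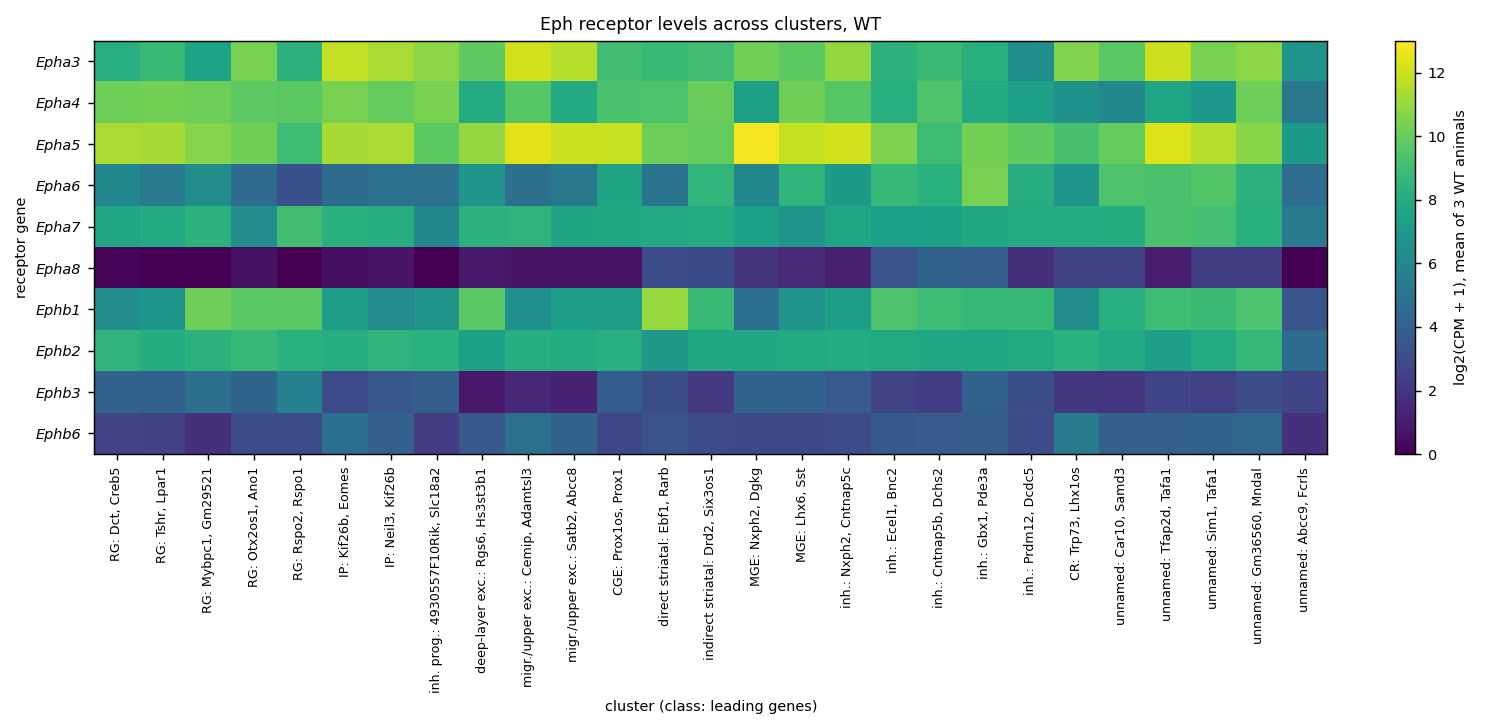
Mean level of each receptor in the 3 WT animals, as log2(CPM + 1), in the 27 clusters with at least 20 nuclei in every animal, grouped by class and labelled by leading genes. Epha3 and Epha5 are high in most excitatory clusters, Epha5 reaches 7320 CPM in interneurons led by Nxph2, Ephb1 reaches 2062 CPM in direct-pathway striatal neurons, and the highest mean of Epha8 is 16.4 CPM.

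For each receptor the 3 most similar genes were found by Pearson's r of log2(CPM + 1) over these 27 clusters, in WT means, among 10874 genes, as a description only, since the clusters share libraries and depth. Epha3 was closest to Gm22769 (r = 0.97), which lies inside it and may share its reads, and then to 2600014E21Rik (0.81) and Castor2 (0.79). Epha7 was closest to Tert (0.79), Draxin (0.78) and Cxadr (0.76), and Epha6 to Dlk2 (0.87), Cntnap5a (0.85) and L3mbtl4 (0.84). Epha4 was closest to Ubtd2, Gm35040 and 2900037B21Rik (0.84 to 0.85), Epha5 to Gm20687, Zfhx2os and Bcl9 (0.81 to 0.85), and Epha8 to Ptprr, Gm3294 and Kcnt1 (0.86 to 0.87). Ephb1 was closest to Gm37460, Sybu and Slitrk5 (0.74 to 0.84), Ephb2 to Hdac3, Rimklb and Pbx4 (0.88 to 0.91), Ephb3 to Sox6, Npas3 and Gm45025 (0.80 to 0.82), and Ephb6 to Gm37138, Kcnb2 and Gm38116 (0.86 to 0.88). Between receptors, the highest r was 0.68, for Epha6 and Epha8.

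To ask how loss of MYT1L touches the receptors, KO and Het animals were compared with WT in each class with edgeR's quasi-likelihood test over all genes, and a gene was called at a Benjamini-Hochberg adjusted p under 0.05 with a log2 fold change beyond 0.2. In the 12 classes, 8 to 10 receptors passed the filter on low counts, which gave 108 tests per contrast. The classes are nested, as nuclei of a subtype also count in excitatory or inhibitory neurons, so the tests are not independent. In KO, 10 of the 108 had an unadjusted p under 0.05. Here and below, counts at that threshold stand without the share of all genes and are not read as a result. Of the 108, 1 was called, Epha7 in deep-layer excitatory neurons. DESeq2 called the same gene in the same class and no other. Of the 108 KO changes, 82 lay within 0.2 of zero, with a median standard error of 0.116. The median change of the receptors ran from −0.12 to 0.07 over the classes, and that of all genes from −0.01 to 0.002.

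The counts of called receptors are read against the share of all genes called in the same class. In KO it was 2.45% in deep-layer excitatory neurons, where 1 of 8 tested receptors was called. It was 1.21% in excitatory neurons as a whole, 0.387% in Cajal-Retzius cells, 0.0545% in migrating and upper-layer excitatory neurons, 0.0141% in medial and 0.01% in caudal ganglionic eminence interneurons and 0.00521% in inhibitory neurons, with no receptor called. It was 0.0% in radial glia, excitatory intermediate progenitors, inhibitory progenitors and both types of striatal neurons. In Het no gene was called by edgeR in any of the 12 classes (0.0% of genes), DESeq2 called no receptor, and 3 of the 108 tests of receptors had an unadjusted p under 0.05. A test of 3 against 3 animals that made no call does not show that a receptor was unchanged.

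**Figure D3:**
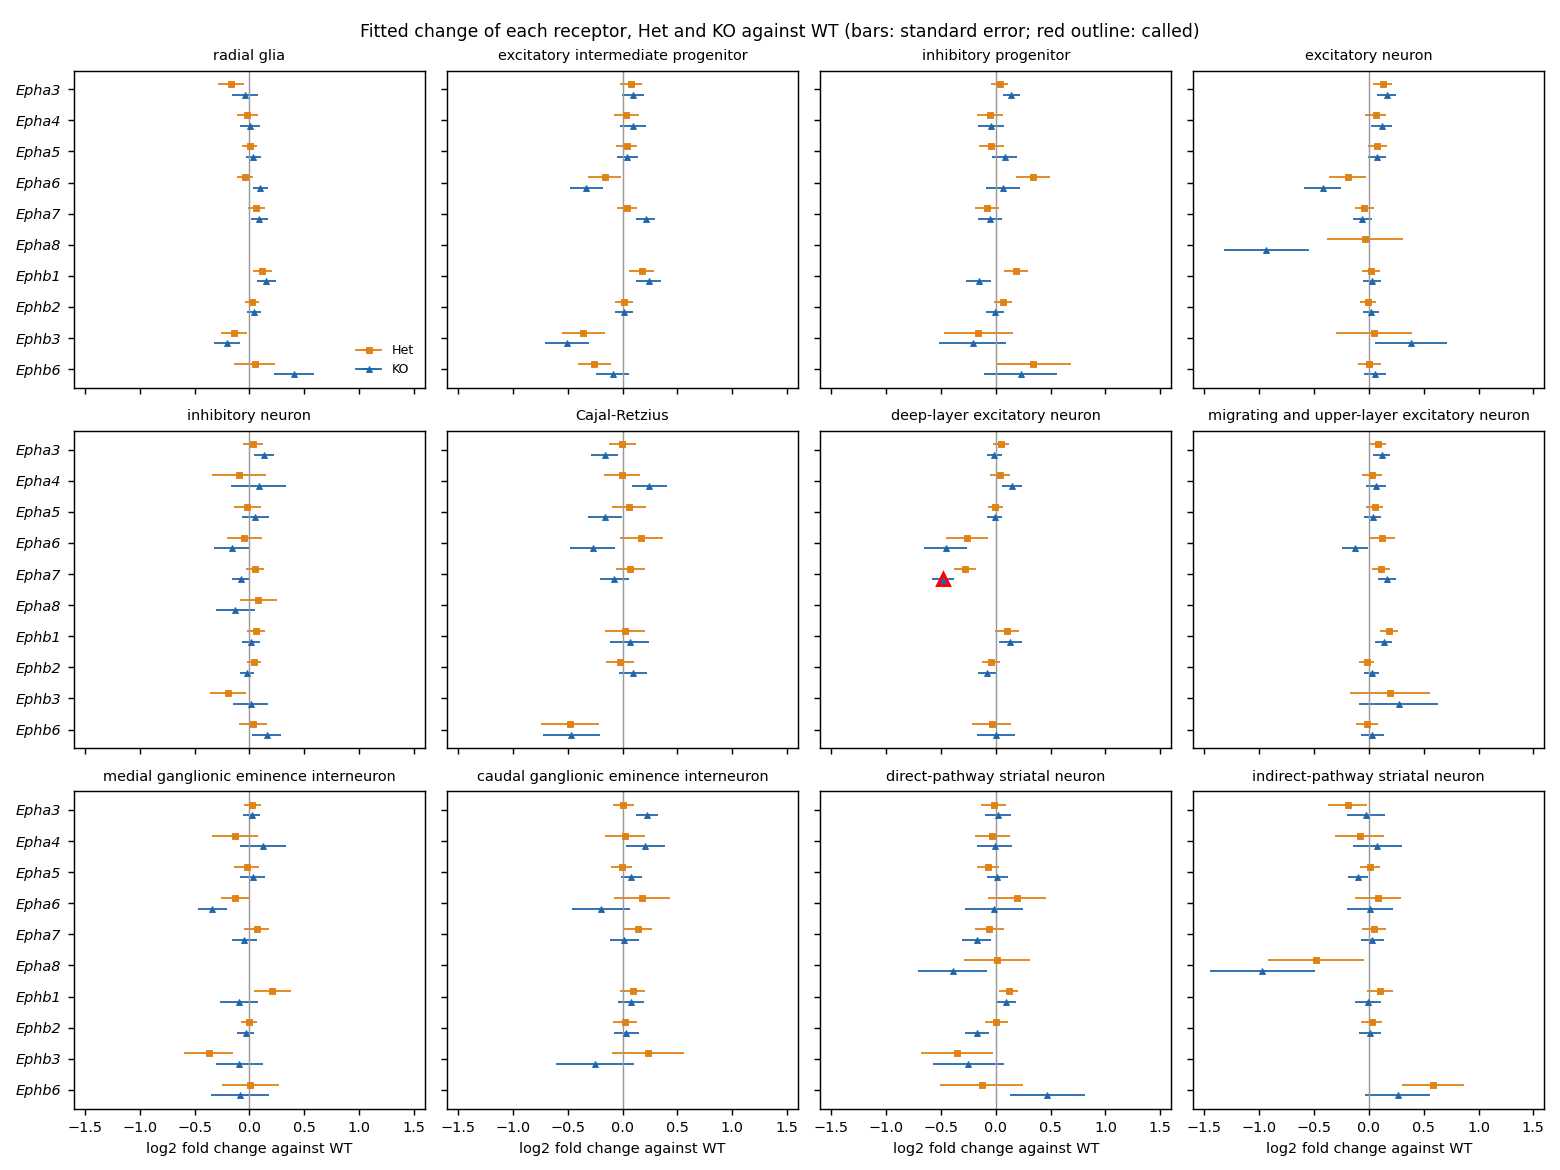
Log2 fold change of each receptor against WT in the 12 classes, Het as squares and KO as triangles. Bars are a standard error derived from the F statistic of the fit. The single called change, outlined in red, is Epha7 in deep-layer excitatory neurons of KO, and the widest bars belong to the low genes Epha8, Ephb3 and Ephb6.

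Epha7 in deep-layer excitatory neurons fell in KO and along the number of intact alleles. These neurons, which go on to form the lower cortical layers, carried 315.4, 321.1 and 329.1 CPM in WT, 252.5, 271.0 and 263.2 in Het, and 236.5, 254.5 and 190.6 in KO, with 881 to 2394 counts behind each value. All 3 WT animals were above all Het animals, and the KO animals reached from below the Het range into it. For this and later separations of groups, how many of all genes separate likewise was not counted. The log2 change was −0.48 in KO (SE 0.10, edgeR adjusted p = 0.0207, with all 3 KO animals under the lowest WT animal) and −0.28 in Het (SE 0.10, unadjusted p = 0.0145, edgeR adjusted p = 1.00).

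A fit over the number of intact alleles gave 0.24 log2 units of Epha7 per allele (SE 0.048, edgeR adjusted p = 0.0118), and 2.84% of all genes were called in that fit. Leaving out WT 2 or WT 3 ended the KO call (edgeR adjusted p = 0.0753 and 0.0843), while the change stayed between −0.59 and −0.34 over the 9 animals left out in turn. It was −0.62 in run 1 alone (edgeR adjusted p = 0.0322) and −0.46 in run 2 alone (0.0396).

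Migrating and upper-layer excitatory neurons were named from markers, and their later layer was not tested. In WT they held deep-layer markers at a sum of 5790.8 to 6051.7 CPM, beside 5862.5 to 7015.9 for their own list. Epha7 was not called in this class. WT animals had 257.5, 274.4 and 260.1 CPM, Het animals 274.7, 286.3 and 281.8, and KO animals 278.1, 325.3 and 267.1. All 3 Het animals were above all WT animals, by as little as 274.7 against 274.4 CPM, and the KO animals overlapped both groups. The KO change was 0.17 (SE 0.081, edgeR adjusted p = 0.554). Taken over all named excitatory neurons, the KO change of Epha7 was −0.06. Unnamed clusters were not tested. In the one led by Car10 and Samd3, Epha7 was at 264.9 ± 13.9 CPM in WT and 190.3 ± 8.54 in KO. In the one led by Tfap2d it was at 615.8 ± 18.4 and 556.0 ± 4.00. In the unnamed clusters led by Sim1 and Tll1, by Gm36560 and by Abcc9, the KO mean was above the WT mean.

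The difference of the KO effect between both subtypes was tested within animals with limma, a comparison added after the call in deep-layer neurons was seen. It was −0.68 for Epha7 (deep-layer minus migrating and upper-layer, SE 0.061, limma adjusted p = 5.93e-05), called in this test along with 0.305% of 13770 genes, and it stayed between −0.72 and −0.59 with each animal left out (highest adjusted p = 0.00393). In Het the difference was −0.42 (limma adjusted p = 0.0464), and Epha7 was the only gene called (0.00726%). Leaving out any animal but KO 1 ended the Het call, with adjusted p up to 0.648. Of the other 7 receptors tested in both subtypes none was called in either contrast, and 2 in KO and 1 in Het had an unadjusted p under 0.05.

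**Figure D4:**
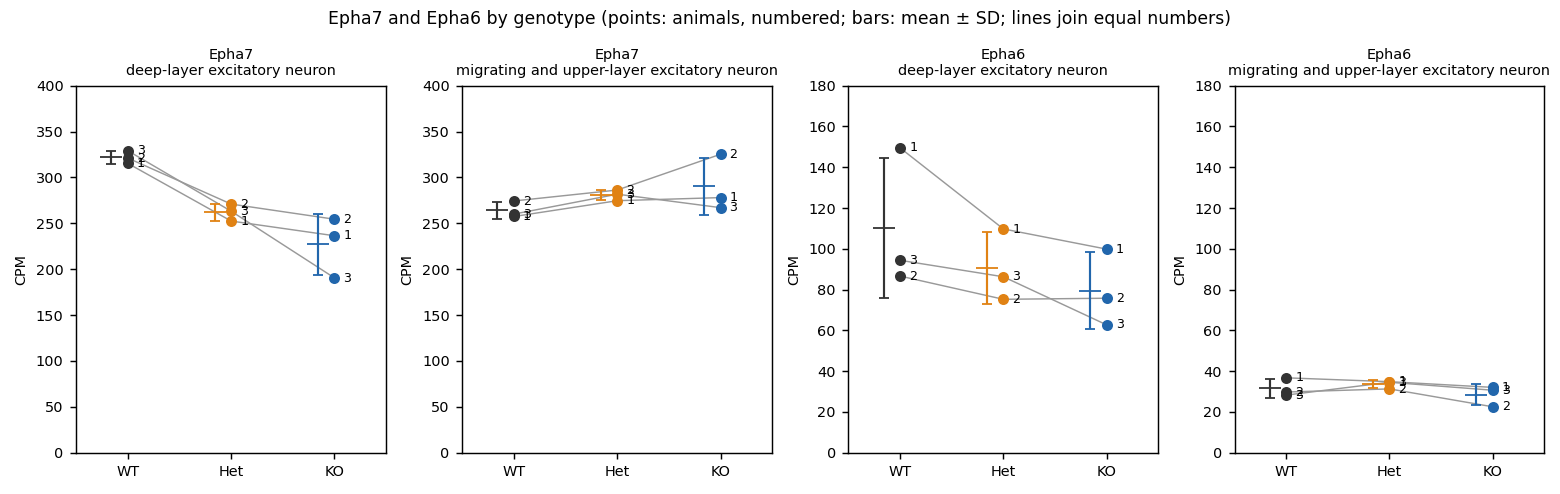
CPM of Epha7 and Epha6 by genotype in deep-layer and in migrating and upper-layer excitatory neurons, with a numbered point for each animal, grey lines joining animals of equal number, and bars for the mean and SD of 3 animals. Epha7 in deep-layer neurons goes from 322 ± 6.90 CPM in WT to 227 ± 33.0 in KO, while in migrating and upper-layer neurons WT is at 264 ± 9.10 and KO at 290.2 ± 30.9.

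Marker levels of the deep-layer nuclei were set beside this. The summed level of 9 deep-layer markers was 12580 to 14749 CPM in WT and 13690 to 16003 in KO, and that of 8 migrating and upper-layer markers 1014 to 1123 CPM in WT and 917 to 1027 in KO. One deep-layer marker, Hs3st4, was called as higher in KO, and no marker of the migrating and upper-layer list was called. Markers of inhibitory neurons summed to 42.9 to 65.5 CPM in WT and 42.0 to 68.2 in KO, and none of the lists had a marker at 0 in every animal. Among lists of other cell types, 7 markers of caudal ganglionic eminence interneurons had sums from 124 up to 159 CPM in the WT animals, while Het animals had 134 to 159 and KO animals 157 to 219.9, with a median log2 change of 0.56 over the 3 that were tested. The 8 diencephalic markers had sums from 24.1 up to 37.4 CPM in the WT animals, while Het animals had 29.4 to 69.0 and KO animals 34.65 to 67.4, with a median of 0.63 over the 4 tested. Of the 18 marker lists, 4 held 1 called gene each, in a class where 2.45% of all genes were called. Beside Hs3st4 (of 9 deep-layer markers tested) these were Lef1 (of 4 diencephalic) and Adarb2 (of 3 caudal ganglionic eminence), both higher in KO. The last was Cacna2d2 (of 5 Cajal-Retzius), lower in KO. Deep-layer nuclei numbered 1070 to 1911 per animal and held 2954 to 3989 UMIs each on average, in overlapping ranges of WT and KO. The part of these in the change of Epha7 was not tested.

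Epha6 was called or not depending on the fit. In deep-layer excitatory neurons it was at 149.5, 86.7 and 94.4 CPM in WT 1 to 3, at 109.8, 75.3 and 86.3 in Het 1 to 3, and at 99.9, 75.8 and 62.7 in KO 1 to 3. Animals numbered 1 were the highest of each genotype, the groups overlapped, and each KO animal was below the WT animal of its number. The KO change was −0.46 (SE 0.19, edgeR adjusted p = 0.280). With the replicate number as a block it was −0.44 (SE 0.084, edgeR adjusted p = 0.00109), a fit in which 8.6% of all genes and 2 of 8 receptors, Epha6 and Epha7, were called. Epha7 was −0.49 there (edgeR adjusted p = 7.83e-05). Without pairing but with no filter on low counts, Epha6 was −0.48 (SE 0.099, edgeR adjusted p = 0.000265), and 1.79% of all genes were called.

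Over all named excitatory neurons Epha6 stood at 82.2, 50.7 and 52.1 CPM in WT 1 to 3, at 63.0, 44.7 and 51.8 in Het, and at 53.7, 39.6 and 42.5 in KO. Again animals numbered 1 were highest in each genotype and the groups overlapped. The KO change was −0.42 (SE 0.17, edgeR adjusted p = 0.308), or −0.40 with the block (SE 0.066, adjusted p = 0.000686), where 6.15% of all genes were called. With no filter on low counts and no block it was −0.42 (SE 0.090, edgeR adjusted p = 0.00062), and 1.53% of all genes were called. Values also depended on the run. The WT mean of Epha6 in deep-layer neurons was 110.2 ± 34.3 CPM over both runs and 56.2 CPM in run 1 alone. In run 1 alone the unblocked change of Epha6 was −0.04 in excitatory neurons and −0.03 in deep-layer neurons (edgeR adjusted p = 0.989 and 0.995), and in run 2 alone −0.49 and −0.50 (0.2403 and 0.290). Without WT 1 the unblocked change was −0.19 in excitatory and −0.20 in deep-layer neurons (edgeR adjusted p = 0.670 and 0.663). Lower KO means of Epha6 were not limited to these classes. Each unnamed cluster had one, none of them tested, as in that led by Tfap2d (WT 626 ± 17.5 CPM, KO 519 ± 37.7). Inhibitory neurons, where Epha6 was not called, had 301 ± 42.0 CPM in WT and 264 ± 62.0 in KO. In radial glia the KO mean was the higher, at 55.9 CPM against 52.5 in WT.

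The remaining receptors gave no call in any class. Epha3 changed by −0.16 to 0.22 in KO over the 12 classes, Epha4 by −0.04 to 0.24, Epha5 by −0.16 to 0.08, Ephb1 by −0.16 to 0.24 and Ephb2 by −0.17 to 0.09, with lowest edgeR adjusted p-values from 0.481 to 0.803. Their median standard errors ran from 0.083 for Ephb2 to 0.14 for Epha4. The low genes were less precise. Ephb3 ran from −0.51 to 0.39 over 9 classes, Ephb6 from −0.47 to 0.47 over 11 and Epha8 from −0.97 to −0.13 over 4, with median standard errors of 0.30, 0.18 and 0.35.

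The lowest unadjusted p of Epha8 was in excitatory neurons, where the fitted KO change was −0.93 (SE 0.39, edgeR adjusted p = 0.332). Its levels were 0.963, 0.491 and 0.707 CPM in WT, 0.947, 0.520 and 0.575 in Het, and 0.344, 0.259 and 0.442 in KO. All KO animals were below all WT animals, on 4 to 13 counts per animal. Neither this separation nor that of Ephb3 below adds support to the fit, as the share of all genes separating likewise was not counted. Ephb3 in excitatory intermediate progenitors had 7.45, 8.17 and 8.86 CPM in WT, 5.74, 6.67 and 6.43 in Het, and 6.38, 4.52 and 6.33 in KO. WT animals were above all others, and the log2 change in KO was −0.51 (SE 0.20, edgeR adjusted p = 1.00). In the same class Epha7 was at 283.1, 302.4 and 299.9 CPM in WT, 284.0, 308.8 and 306.1 in Het, and 348.8, 360.9 and 296.3 in KO, a change of 0.21 (SE 0.090, edgeR adjusted p = 1.00) in the other direction from deep-layer neurons.

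To ask whether the KO effect on a receptor differed between excitatory and inhibitory neurons, the difference within animals was tested with limma. No receptor of 10 was called in KO, against 0.0505% of 17833 genes, and 1 had an unadjusted p under 0.05, Epha8 (−0.82, SE 0.29, limma adjusted p = 0.644). For Epha7 the difference was 0.01 (SE 0.090) and for Epha6 −0.22 (SE 0.13). In Het limma called none of them and 0.0% of all genes, and no receptor had an unadjusted p under 0.05.

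The rest of the pathway was read from lists of 8 ephrin ligands, 4 other Eph receptors and 38 signalling effectors. In excitatory neurons of KO, where 1.21% of all genes were called, 1 ephrin of 8 rose, no effector of 38 was called and neither of the 2 other receptors tested was. In deep-layer excitatory neurons, where 2.45% were called, 1 ephrin of 8 rose and 1 effector of 38 fell, and the 1 other receptor tested was not called. With the replicate block, which called 6.15% and 8.6% of all genes, the counts were higher. In excitatory neurons 1 ephrin rose and 1 fell, 2 effectors rose and 2 fell, and 1 other receptor, Ephb4, rose (edgeR adjusted p = 0.0203). In deep-layer neurons 2 ephrins rose and 1 fell, 4 effectors rose and 3 fell, and Ephb4 rose (edgeR adjusted p = 0.0487). Without the block, the ephrin was Efna4 in both classes, which encodes ephrin-A4, a ligand of A-class receptors. The medians of the ephrins were −0.05 and −0.04 and those of the effectors 0.03 and 0.004, beside medians of −0.01 over all genes. In the other 10 classes no gene of these 3 lists was called in KO without the block, and none was called in Het in any class. With the block, Efna4 also rose in migrating and upper-layer excitatory neurons (0.61, SE 0.10, edgeR adjusted p = 0.00228, against 0.62 and 0.130 without it), where 2 effectors rose, 1 fell and 2.51% of all genes were called, although not every correlation of same-numbered animals passed 0.1 in that class.

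Efna4 was at 8.99, 7.11 and 10.7 CPM in deep-layer excitatory neurons of WT, 13.2, 13.5 and 9.30 in Het, and 16.6, 18.2 and 16.2 in KO. Every KO animal was above every Het animal, and Het and WT overlapped. The KO change was 0.96 (SE 0.18, edgeR adjusted p = 0.00966), and it lost its call without WT 2 (0.0509) or KO 2 (0.0554). In run 1 alone it was 0.56 (edgeR adjusted p = 0.739) and in run 2 alone 1.04 (0.00954). In all excitatory neurons the KO change was 0.73 (SE 0.12, edgeR adjusted p = 0.0108), from 12.3, 10.1 and 13.6 CPM in WT to 21.3, 18.7 and 18.5 in KO, and the call was lost without WT 2 (0.0538) and in run 1 alone (0.565).

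Ptprj, a receptor phosphatase known to act on Eph receptors, was the effector that fell. In deep-layer neurons it was at 111.5, 106.1 and 97.8 CPM in WT, 90.8, 105.1 and 91.3 in Het, and 74.9, 66.5 and 76.3 in KO. Each KO animal was below all WT and Het animals, and the latter overlapped. The change was −0.52 (SE 0.089, edgeR adjusted p = 0.00642), and it was called with each animal left out in turn (highest edgeR adjusted p = 0.0462, without KO 2). In run 1 alone it was −0.55 (edgeR adjusted p = 0.199) and in run 2 alone −0.50 (0.0168).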

How the data were processed

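The authors mapped reads to mm10 with ScaleRna and deposited matrices of UMIs per gene and nucleus. The values deposited by the authors were handled as estimated counts because not all are whole. Between 6.70 and 8.71% of entries per library differed from the nearest whole number (no tolerance), which no source used here explains. No source used here names the annotation release or strand setting.

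Limits for a nucleus were 800 and 6000 UMIs, 300 and 3000 genes, a mitochondrial share of 1% at most and log(genes)/log(UMIs) of 0.9 or more, and the 5% with the highest Scrublet scores per library were removed. Leiden clusters (scanpy 1.11.5, igraph 0.11.9, resolution 1) were named from marker lists, by a rule set with the data in view. Names need not match those of the study. Runs were summed per animal, rounded, and tested with edgeR 4.0.16 (filterByExpr, TMM, genotype over 9 animals). The SE beside an edgeR change is the absolute log2 change divided by the square root of the F statistic. It is not a direct output of the fit. Class differences used limma 3.58.1, and DESeq2 1.42.0 was an alternative. The tests were checked on simulated data, where the edgeR step missed most of the smaller and some of the larger known changes, and the limits for accepting it were relaxed after its first result.

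What a replicate number marks is not stated in the labels. Tests are without it unless a block is named. Numbers were counted as pairing the animals, and the result with the block given beside a call it changed, in classes where every correlation between same-numbered animals (deviations from genotype means) exceeded 0.1. This held in 5 of 12 classes, among them excitatory neurons (0.106 to 0.273) and deep-layer neurons (0.128 to 0.332), and not in the other 7. The limit of 0.1 was a choice that sorts classes, whereas a number belongs to an animal whatever the class. In migrating and upper-layer neurons same-numbered correlations were 0.086 to 0.219, against −0.173 to 0.063 for other numbers. The lowest same-numbered value of any class was −0.016, in indirect-pathway striatal neurons.

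The receptors, gene lists and markers were chosen with earlier results of these data known. The rule for named genes took the receptors, genes of the other lists called without the block, and the 3 most similar genes per receptor. Other genes are named to check labels, to identify clusters or for overlap with a receptor, and Ephb4 was named after its values were seen. Where 0 counts were found, the limit is 3 counts of the animal's class total, for counting error only.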

Additional observations from a re-analysis of the deposited data

Results flagged for a closer look

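The effect of genotype on Epha7 differed between the named excitatory neuron subtypes by a test of the difference itself. Unnamed clusters were not tested, and some of them had lower and others higher means of Epha7 in KO than in WT. The KO effect in deep-layer neurons minus that in migrating and upper-layer neurons was −0.68 (log2, limma adjusted p = 5.93e-05), and the Het effect differed by −0.42 (limma adjusted p = 0.0464), a call that was lost when any animal but KO 1 was left out (adjusted p up to 0.648). In KO the effect was −0.48 in deep-layer and 0.17 in migrating and upper-layer neurons. The pair of subtypes was picked after the deep-layer call was seen, and the KO and Het effects share the WT animals.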

How the results depend on the processing

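Counts were lowest for Epha8, with 0 to 21 per animal in every tested class but inhibitory neurons (64 to 110). Alternatives were the replicate block, DESeq2, its size factors, no filter on low counts, only the 6 animals compared, each run alone, no upper limits on nuclei, no doublet removal and each animal left out in turn. With the replicate block, receptors called went from 0 to 1 in excitatory neurons, in KO and in the trend over intact alleles, and from 1 to 2 in deep-layer neurons, in KO and in the trend. The added receptor was Epha6 each time, as it was with no filter on low counts (1 receptor called in excitatory and 2 in deep-layer neurons of KO). Among the 10 receptors the block changed no other call. With 1 animal left out, the count ranged from 0 to 1 for deep-layer neurons of KO, from 0 to 1 for the trend in excitatory neurons (1 without KO 3, Epha3, adjusted p = 0.0454), and from 0 to 1 for the Het difference between excitatory subtypes. The other counts of called receptors stayed the same under every alternative run. Cajal-Retzius cells were too few in run 1 to be tested there. Of the WT means of at least 20 CPM, 79 could be set against run 1 alone, where they were 0.51 to 1.30 times the value over both runs, and 87 against run 2 alone (0.90 to 1.10 times). The 1 that moved by over 1.5 times was Epha6 in deep-layer neurons in run 1, 56.2 against 110.2 CPM. The cause of these shifts was not tested.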

Other observations

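Ephb4, a receptor outside the 10 and named here after its values were seen, had a positive KO change in excitatory neurons, from 3.04, 3.34 and 4.69 CPM in WT to 6.80, 5.37 and 5.31 in KO (log2 change 0.66, SE 0.17, edgeR adjusted p = 0.0964). With the replicate block it was called there (0.65, edgeR adjusted p = 0.0203) and in deep-layer excitatory neurons (0.85, edgeR adjusted p = 0.0487). The block called 6.15% and 8.6% of all genes in these classes. The deep-layer values were low, at 2.49 ± 0.550 CPM in WT and 4.38 ± 0.408 in KO, on 13 to 26 counts per animal. Its highest level was in radial glia, at 54.8 to 66.6 CPM over the 9 animals, where WT and KO overlapped.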
